A study of Homo sapiens with 2 samples.

Results

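The alpha and beta globin genes encode the chains of haemoglobin, and 10 of them were followed here: HBE1, HBG2, HBG1, HBD and HBB of the beta cluster on chromosome 11, and HBZ, HBM, HBA2, HBA1 and HBQ1 of the alpha cluster on chromosome 16. They were chosen by gene name, with earlier results of these data known. All 10 names were found among the 36814 gene windows of the deposited table. The table comes from precision run-on sequencing (PRO-seq), in which polymerases already engaged on DNA are allowed to extend their transcripts with biotinylated nucleotides, so that the captured RNA reports ongoing transcription. The cells were K562, an established line of human chronic myelogenous leukaemia cells, in every sample. The series has 2 libraries: 1 of cells left untreated, and 1 of cells given 0.1% DMSO, a common drug solvent, for 1 h. With 1 library per treatment no value has a replicate check and no test of the treatment was possible.

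Haemoglobin pairs chains of the alpha cluster with chains of the beta cluster. In each cluster the genes stand roughly in the order in which they are used in development: HBZ (zeta) and HBE1 (epsilon) in the embryo, HBG2 and HBG1 (the gamma chains) in the fetus, HBA2 and HBA1 (the alpha chains) from the fetus on, and HBD (delta) and HBB (beta) after birth. HBM (mu) and HBQ1 (theta) are further genes of the alpha cluster whose protein products are not established parts of haemoglobin. A far upstream control region drives the beta cluster, and the main enhancers of the alpha cluster lie in introns of the neighbouring gene NPRL3. K562 is known for making embryonic and fetal haemoglobin and very little of the adult beta chain.

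Total counts were 2136291 reads without treatment and 4154920 with DMSO, of which ribosomal RNA and mitochondrial windows took 75.4% and 45.9%. Levels given as CPM (a count scaled to the total of its library) therefore do not compare the libraries. The ratio used for that is described with the comparison. Markers of blood and other cell types are given in reads, to be read against 4.72 DMSO reads per untreated read in the median window described there. All 5 neural markers (GFAP, NTRK2, MT3, SYT1 and RBFOX3) were at 0 reads in the untreated library, and together held 909 reads with DMSO. The 6 erythroid markers GATA1, KLF1, TAL1, TFRC, ALAS2 and EPOR had reads in both libraries, in sum 903 untreated and 2822 with DMSO, or 3.13 DMSO reads per untreated read. The 5 megakaryocytic markers summed to 88 and 280 reads with PF4 at 0 in both, the 5 lymphoid markers to 66 and 244, the 5 myeloid markers to 4 and 76, and the 3 liver markers to 6 and 24 with TTR at 0 in both. The part of the neural reads in the globin values was not tested.

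Each window spans 6000 bases of hg38 around the annotated start of a gene, and bases that lie in more than 1 window carry no reads. The 1154 windows of the table without a base of their own held 0 reads in all, and 321 of these are overlapped only by windows of the opposite strand. Among the globin windows, 8 of 10 shared bases with another window and 2, those of HBB and HBM, did not. A level per kb here is always per kb of unshared bases. A read in a globin window can therefore come from either strand. HBA1 and HBA2 are near-identical copies, and so are HBG1 and HBG2. A read from one copy may have been placed at the other, so the division within each pair is uncertain.

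Only 5 of the 10 windows held the RefSeq start of the gene they are named after. They were those of HBG1, HBB, HBA2, HBA1 and HBQ1. Among the 22633 windows whose name matches a single RefSeq gene, 11.5% did not hold that gene's start. The window named HBG2 (chr11:5502606-5508605) lies 248 kb from the start of the HBG2 gene, and that named HBE1 (chr11:5502653-5508652) 233 kb from the start of HBE1. Both stand over the RefSeq start of OR51B5, an olfactory receptor gene, whose own window has the same coordinates as that of HBE1. As a result the HBE1 window had 0 unshared bases and the HBG2 window 47, so neither could report on its gene.

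Other windows covered some of the genes that were missed. AC104389.6 (chr11:5251784-5257783), a window named after another annotated transcript, held all 1594 bases of the HBG2 gene in its 4924 unshared bases. The window named HBM (chr16:150892-156891) held all 1860 bases of HBZ and none of HBM, whose start lies 9.09 kb away. The window named HBZ (chr16:139728-145727) lay 6.92 kb short of the HBZ start, and its unshared bases held no RefSeq gene with an assigned symbol. The window named HBD (chr11:5240658-5246657) lay 6.17 kb from the HBD start, and its 1889 unshared bases held 593 bases of the pseudogene HBBP1. No window covered any base of the HBE1, HBD or HBM genes, and for these 3 genes no level is given.

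Of the 10 genes, 2 have an entry in the RefSeq promoter table used here, HBD and HBM (build GRCh38.p14). Their 250 bases upstream of the start are shown because both stretches lie outside every counted window. The HBD and HBM counts therefore contain no read from either sequence. The HBD stretch is chr11:5234484-5234733 on the minus strand, and the HBM stretch is chr16:165728-165977 on the plus strand. Both are written 5′ to 3′ up to the last base before the start, and capitals mark the motifs named below.
HBD: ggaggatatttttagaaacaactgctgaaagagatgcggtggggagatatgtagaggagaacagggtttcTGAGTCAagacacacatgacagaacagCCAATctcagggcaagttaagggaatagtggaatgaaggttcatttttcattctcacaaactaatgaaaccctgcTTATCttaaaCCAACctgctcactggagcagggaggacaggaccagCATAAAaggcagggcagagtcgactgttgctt
HBM: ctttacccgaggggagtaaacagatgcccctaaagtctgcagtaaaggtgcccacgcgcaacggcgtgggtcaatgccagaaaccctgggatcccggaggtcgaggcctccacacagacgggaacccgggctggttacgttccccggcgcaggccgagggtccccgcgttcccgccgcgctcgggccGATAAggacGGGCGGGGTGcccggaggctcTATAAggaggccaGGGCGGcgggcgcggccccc

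Motifs were searched on both strands, and shares refer to the same 250 bases of all 35116 promoters of that table. CACCC, the core of the sites bound by KLF1, was found once in the HBM stretch on the opposite strand, where it reads GGGTG and shares a base with a GGGCGG match, and not in the HBD stretch. It occurs in 54.7% of promoters. CCAAT, the letters of the CCAAT box, was found in HBD 153 bases before the start and occurs in 32.0% of promoters, while nearer the start, 68 bases before it, HBD has CCAAC (33.0%). GATAA, the core bound by GATA1, was found in both, on the opposite strand in HBD as TTATC, and occurs in 20.4% of promoters. HBD has CATAAA 32 bases before the start (9.64% of promoters) and HBM has TATAA 33 bases before it (18.9%). HBM also has GGGCGG at 2 places (42.6%), and HBD has TGAGTCA, the letters bound by NF-E2 and AP-1 factors, 180 bases before the start (4.20%). AGATAA (9.17% of promoters) was found in HBD, as the GATAA match extended by a base that is not in capitals. Found in neither stretch were TATAAA (10.7%), AATAAA (16.0%), TGATAA (6.66%) and TGACCA (9.19%). The searches for GATAA, that for TATAA and that for CCAAC were added after the sequences were seen.

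Among the windows that cover beta cluster genes, nearly all reads lay at the fetal genes. The HBE1 and HBD genes are covered by no window, so their levels are not known. The HBG1 window (chr11:5246860-5252859) had 244 reads untreated (exact Poisson 95% interval 214 to 277) and 518 with DMSO (474 to 565). Intervals here and below cover counting error only, and treat each read as independent. PCR reads without molecular identifiers are not independent molecules, so the intervals may be too narrow even for counting error. Its 3237 unshared bases take in 1311 of the 1589 bases of the gene, including the start. Per kb this made 75.4 reads untreated, a level above that of 99.8% of the 28070 windows with 1 kb or more of unshared bases outside ribosomal RNA and mitochondrial windows, and 160 reads with DMSO, above 99.0% of them.

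AC104389.6, which covers the other fetal gene HBG2, had 376 reads untreated and 738 with DMSO. Its level was 76.4 reads per kb untreated and 150 with DMSO. The AC104389.6 level was thus 1.01 times that of HBG1 untreated (interval 0.860 to 1.20) and 0.937 times with DMSO (0.836 to 1.05). The 2 fetal windows did not differ beyond counting error in either library, and differences within these intervals were not detectable at this depth. Since a read from one near-identical copy may have been placed at the other, the 2 levels are not independent.

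The adult gene HBB was read far less. Its window (chr11:5226396-5232395), with all 6000 bases unshared and 676 of the 1608 bases of the gene, had 2 reads untreated (interval 0.242 to 7.22) and 25 with DMSO (16.2 to 36.9). That is 0.333 and 4.17 reads per kb, levels above those of 50.8% and 61.8% of windows, so HBB stood near the middle of all windows while HBG1 stood near the top. Per kb, HBG1 was 226-fold higher than HBB untreated, with a wide interval of 61.9 to 1878, and 38.4-fold higher with DMSO (25.7 to 59.9). The gene made up 40.5% of the unshared bases of HBG1 and 11.3% of those of HBB. The part of this in the fold values was not tested. The HBD window, over the pseudogene HBBP1, had 5 reads untreated and 35 with DMSO, or 2.65 and 18.5 reads per kb.

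The windows named HBE1 and HBG2 had 0 reads each untreated, and 0 and 2 with DMSO. Of the reads in the 5 windows named after beta cluster genes, HBG1 took 97.2% untreated (244 of 251, exact Clopper-Pearson 95% interval 94.3 to 98.9) and 89.3% with DMSO (518 of 580, 86.5 to 91.7). HBB took 0.797% and 4.31%. These are shares of windows, not of genes, since the windows named HBE1, HBG2 and HBD hold no base of those genes. AC104389.6, over the HBG2 gene, is not among the 5 windows. BGLT3, a noncoding RNA gene between HBBP1 and HBG1 known for a role in gamma globin expression, shares bases with the windows of both HBG1 and HBD. It kept 202 unshared bases, none of them of its RefSeq gene, and held 4 and 8 reads.

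**Figure D1:**
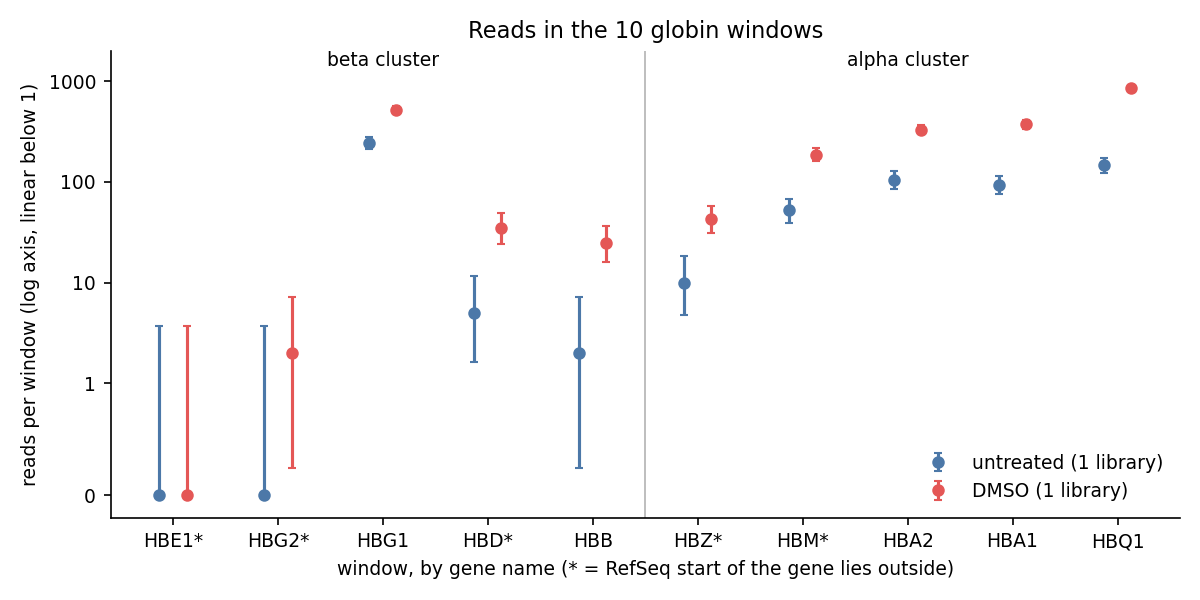
Reads in each of the 10 globin windows in the untreated and the DMSO library, with exact Poisson 95% intervals, on a log axis that is linear below 1. Of the windows named after beta cluster genes, only HBG1 is above 100 reads in either library. An asterisk marks the 5 windows that do not hold the RefSeq start of their gene.

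Upstream of the beta cluster, between the HBE1 gene and the window named HBE1, stand 8 olfactory receptor windows, all without shared bases. Olfactory receptors are odorant receptors of the nose, and the beta globin cluster is embedded among them. All 8 windows reached 1 CPM in both libraries, against 31 of the other 373 olfactory receptor windows of the table (8.31%). Their median was 62 reads untreated and 151.5 with DMSO, against 0 and 1 for the others. This contrast was drawn after the values were seen and carries no test.

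Within this stretch the counts were ordered by position, except at the window nearest to the globin genes. OR51B4, nearest to the globin genes at 74.9 kb from the HBB start, had 47 reads untreated and 136 with DMSO, and OR51B2 at 97.2 kb had 17 and 25. From OR51B2 outward the counts were higher at each of 6 steps in both libraries. OR51B6 had 37 and 34 reads, OR51M1 58 and 45, OR51Q1 66 and 167, OR51I1 86 and 207, and OR51I2 96 and 312. The outermost, OR52D1 at 262 kb, had 139 and 626. RefSeq places 6 of the 8 windows, OR51B6 to OR52D1, inside the gene OR51B5 (chr11:5340318-5505652), which reaches up to the windows named HBE1 and HBG2.

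**Figure D2:**
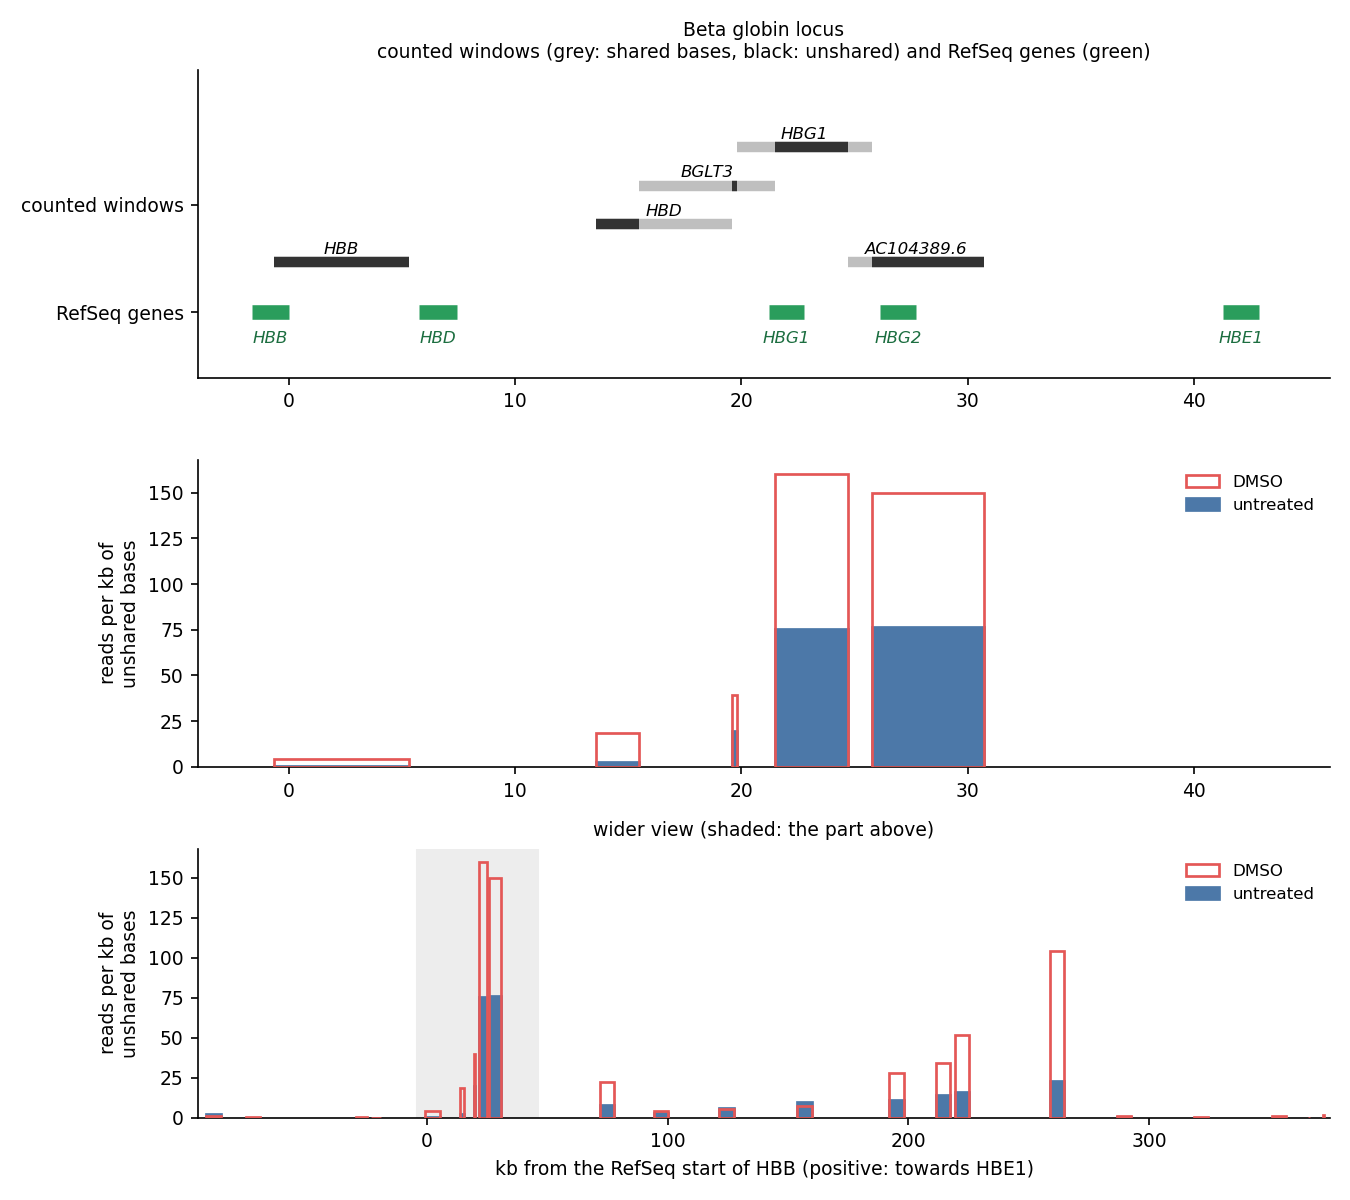
Counted windows and RefSeq globin genes of the beta locus (top), reads per kb of unshared bases in the same stretch (middle) and in a wider one (bottom), by distance in kb from the RefSeq start of HBB. Bars of both libraries start at 0 and are drawn over each other; their heights are not scaled for depth. HBG1 and AC104389.6 stand at 75.4 and 76.4 reads per kb untreated, and the wider view shows the olfactory receptor windows up to OR52D1 at 23.2 untreated and 104 with DMSO.

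In the alpha cluster the reads were spread over more windows. HBA2 (chr16:169876-175875), with 804 of the 835 bases of the gene among 3804 unshared bases, had 105 reads untreated (interval 85.9 to 127) and 330 with DMSO (295 to 368). HBA1 (chr16:173680-179679) kept 1583 unshared bases, of which 779 are gene, and had 94 (76.0 to 115) and 374 reads (337 to 414). Per kb HBA1 stood at 59.4 reads untreated and 236 with DMSO, and HBA2 at 27.6 and 86.8. HBA1 was thus 2.15-fold higher per kb than HBA2 untreated (1.61 to 2.87) and 2.72-fold with DMSO (2.34 to 3.17). The gene made up 49.2% of the unshared bases of HBA1 and 21.1% of those of HBA2, and the part of this difference, and of the near-identical sequence, in the HBA1 excess was not tested.

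The window of the theta globin gene HBQ1 had the most reads of all 10 windows with DMSO. This window (chr16:177459-183458), with the whole gene of 721 bases among 3615 unshared bases, had 146 reads untreated (123 to 172) and 854 with DMSO (798 to 913). Per kb this made 40.4 and 236 reads. Untreated its level was 0.680 times that of HBA1 (0.521 to 0.891), and with DMSO 1.00 times (0.884 to 1.13). Its unshared bases begin 2.16 kb after the end of the HBA1 gene. The HBQ1 gene made up 19.9% of these bases, and the part of the other bases in the reads was not tested. The window that follows, Z69706.1, had 110 and 286 reads, so that HBQ1 was 2.14-fold higher per kb untreated (1.66 to 2.77) and 4.82-fold with DMSO (4.21 to 5.53).

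The embryonic gene HBZ is covered by the window named HBM, which had 52 reads untreated (38.8 to 68.2) and 186 with DMSO (160 to 215). At 8.67 and 31.0 reads per kb it was above 88.7% and 85.7% of windows. HBA2 was 3.18-fold higher per kb untreated (2.26 to 4.53) and 2.80-fold with DMSO (2.33 to 3.37). The window named HBZ, upstream of that gene, had 10 and 43 reads, and the window named HBM was 3.35-fold (1.68 to 7.40) and 2.79-fold (1.99 to 3.98) higher per kb. Of the reads in the 5 windows named after alpha cluster genes, HBQ1 took 35.9% untreated (31.2 to 40.7) and 47.8% with DMSO (45.5 to 50.1). HBA2 and HBA1 took 25.8% and 23.1% untreated. These too are shares of windows, as no window covers the HBM gene.

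**Figure D3:**
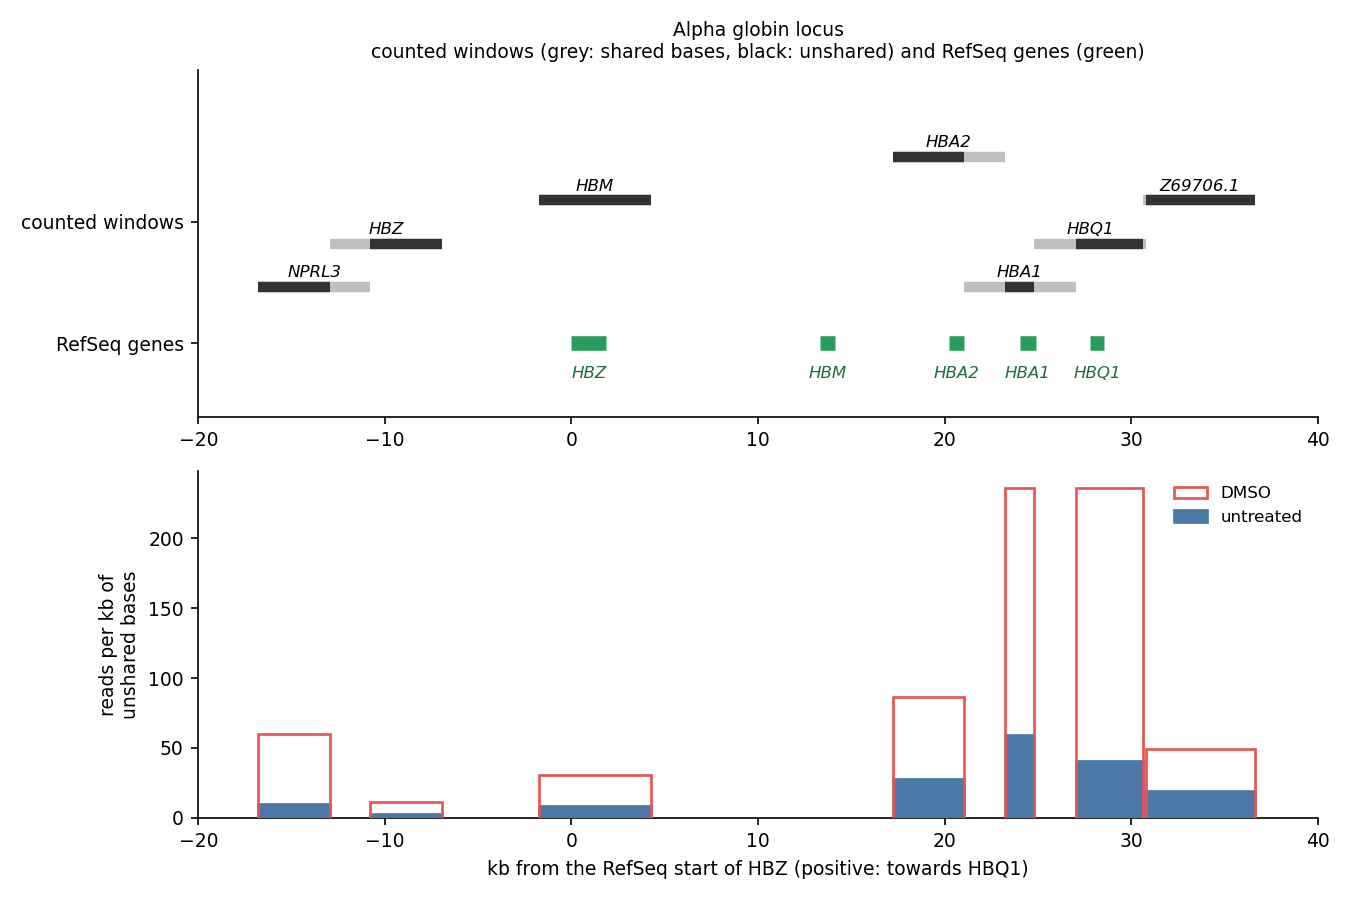
Counted windows and RefSeq globin genes of the alpha locus (top) and reads per kb of unshared bases (bottom), by distance in kb from the RefSeq start of HBZ; bars of both libraries start at 0 and are drawn over each other, with heights not scaled for depth. The window named HBM lies over the HBZ gene, and HBA1 and HBQ1 are at 236 reads per kb with DMSO.

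Set in order per kb, the windows of the untreated library began with HBG1 at 75.4 reads, HBA1 at 59.4, HBQ1 at 40.4 and HBA2 at 27.6. Next came the windows named HBM at 8.67, HBD at 2.65 and HBZ at 2.59, and then HBB at 0.333. The windows named HBM, HBD and HBZ hold no base of the genes they are named after. HBG1 and HBA1 did not differ beyond counting error (ratio 1.27, interval 0.997 to 1.63). HBG1 was above HBQ1 by 1.87-fold (1.51 to 2.31) and above HBA2 by 2.73-fold (2.16 to 3.47). With DMSO the order differed at the top. HBA1 and HBQ1 stood at 236 reads per kb each, above HBG1 at 160, which was 0.677 times HBA1 (0.592 to 0.776) and 0.677 times HBQ1 (0.606 to 0.756). HBG1 was again above HBA2, by 1.84-fold (1.60 to 2.12). In both libraries HBA2 was above the window named HBM. That window was above the window named HBD, by 3.27-fold untreated (1.32 to 10.5) and 1.67-fold with DMSO (1.16 to 2.47). The windows named HBD and HBZ did not differ beyond counting error untreated (1.02, 0.275 to 3.29). With DMSO the window named HBD was 1.67-fold higher (1.04 to 2.67). The window named HBZ was above HBB by 7.76-fold (1.65 to 72.8) and 2.67-fold (1.59 to 4.56). These were among 18 pairs of windows set side by side, with no correction for their number.

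In all, 7 of the 10 globin windows reached 1 CPM in both libraries, against 34.7% of all windows. HBE1, HBG2 and HBB did not. The median globin window stood at 14.5 CPM untreated and 27.6 CPM with DMSO, against 0.468 and 0.963 CPM for all windows.

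The design sets a solvent control beside unperturbed cells, and with 1 library each the comparison is between libraries, not conditions. Counts were scaled with TMM factors, and log2 DMSO/untreated ratios are given relative to the median of the 6591 windows that passed a floor, set at 5 CPM as the mean of both libraries and 100 reads as their sum. That median stood at a log2 value of 0.31 under TMM and at 1.27 under library totals. The floor was passed by 5 globin windows, HBG1, HBA2, HBA1, HBQ1 and HBM, a share of 50% against 17.9% of all windows.

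Among the globin windows past the floor the fetal genes had the lowest ratios. HBG1, with 244 untreated and 518 DMSO reads, had a log2 DMSO/untreated value of -1.15, counted from the median window (exact Clopper-Pearson interval -1.37 to -0.93). AC104389.6, over HBG2, stood at -1.26 (-1.45 to -1.08), and the difference between them was -0.11 (-0.40 to 0.18). As reads may be placed at either near-identical copy, the ratios of HBG1 and AC104389.6 are not independent. Both lay past 2-fold lower, as did 7.97% of windows past the floor, and only the interval of AC104389.6 lay wholly past it. Under other floors HBG1 ran from -1.54 to -1.04. Not counted from the median window, HBG1 stood at -0.84 under TMM and at 0.13 under library totals. Of the 5 globin windows past the floor 1 was at least 2-fold lower and none at least 2-fold higher, against 7.97% and 7.04% of all windows past the floor. A count of 1 among 5 windows is too small to be read against that share. Treatment, library and depth cannot be told apart in this design.

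The alpha windows lay nearer to the median window. HBA2 stood at -0.59 (-0.91 to -0.25), the window named HBM at -0.40 (-0.85 to 0.073) and HBA1 at -0.25 (-0.58 to 0.096). HBQ1 was the only one of the 5 above it, at 0.31 (0.056 to 0.57), but stood at -0.083, below the median window, when all windows with any read set that median. HBQ1 exceeded HBG1 by 1.46 (1.12 to 1.81), HBA2 by 0.90 (0.47 to 1.31) and HBA1 by 0.56 (0.13 to 0.98). HBA1 and HBA2 did not differ beyond counting error (0.34, -0.13 to 0.81). The median ratio of the 5 windows was -0.40, with 4 of 5 below the median window, against 50% of all windows past the floor by construction.

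The windows beside the clusters also varied. In the olfactory receptor stretch 6 of the 8 windows passed the floor and all 6 lay below the median window, from OR51M1 at -2.58 (-3.20 to -2.02) to OR52D1 at -0.067 (-0.33 to 0.21), with a median of -0.80. Of the 6, OR51M1 was at least 2-fold lower, against 7.97% of all windows past the floor. The 2 windows below the floor stood at -2.33 (-3.08 to -1.65) for OR51B6 and -1.65 (-2.63 to -0.70) for OR51B2. Around the alpha cluster 11 windows that are not globin genes held 20 or more reads or shared bases with one, and 7 of them passed the floor. Z69720.1, a window inside the gene NPRL3, had 106 and 236 reads and stood lowest, at -1.08 (-1.42 to -0.74). NPRL3 itself, with 38 and 233 reads over its start, stood highest at 0.38 (-0.12 to 0.91).

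The others past the floor were Z69706.1 at -0.86, Z69667.1 at -0.89, FAM234A at -0.23, PDIA2 at -0.064 and LUC7L at 0.17. Below the floor, Z69666.1, also inside NPRL3, had 31 and 53 reads, MPG 8 and 33, SNRNP25 12 and 13, and RGS11 0 and 28.

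**Figure D4:**
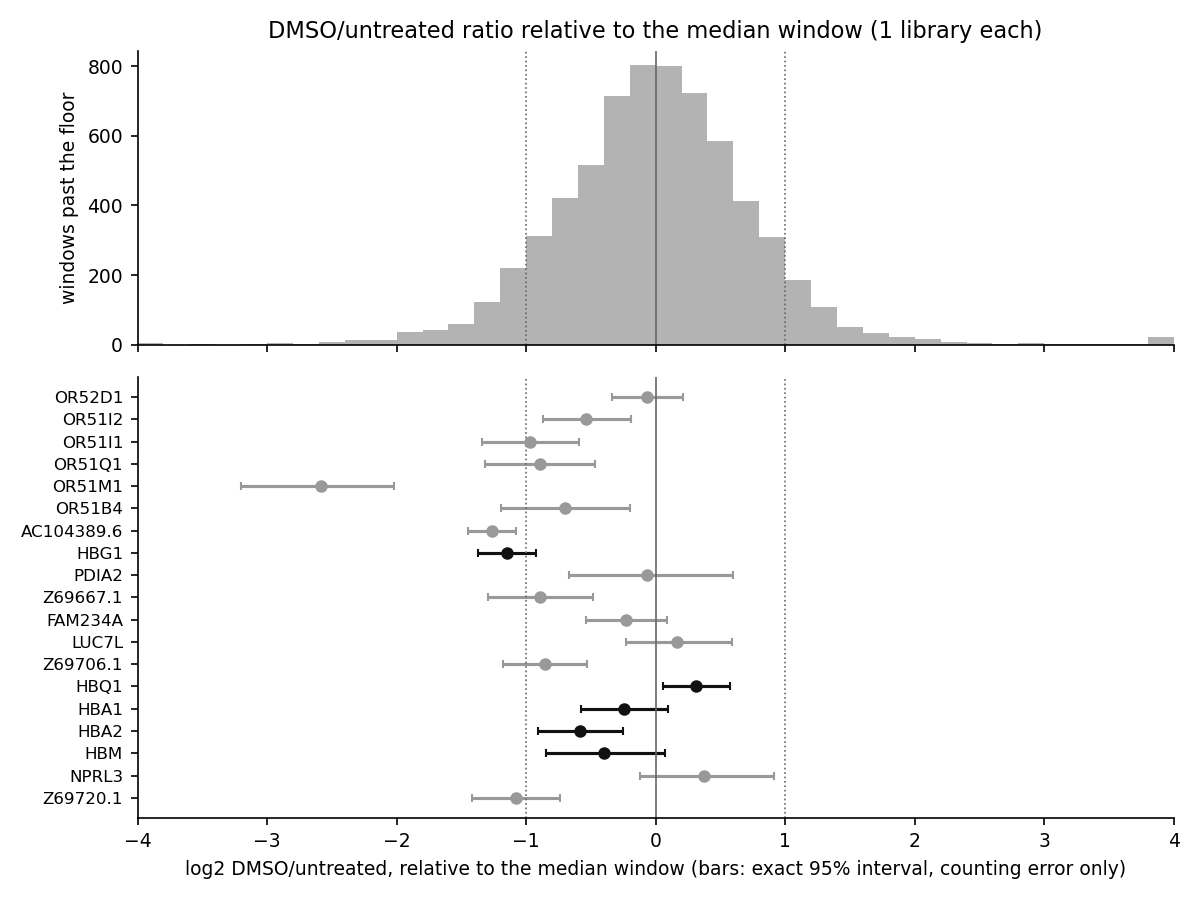
Log2 DMSO/untreated ratio relative to the median window: distribution over the 6591 windows past the floor (top, values beyond the axis placed in the end bins) and the globin windows (black) and named neighbours (grey) past the floor with exact 95% intervals for counting error only (bottom). Dotted lines mark 2-fold; HBG1 and AC104389.6 lie at -1.15 and -1.26, and HBQ1 at 0.31.

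A list of 33 genes was read beside the globins: transcription factors and repressors that act on them, neighbours of the alpha cluster, and genes of haem, iron and red cells. Of these 26 reached 1 CPM in both libraries and 16 passed the floor, against 34.7% and 17.9% of all windows. Of the 16, 1 was at least 2-fold higher and 0 at least 2-fold lower, against 7.04% and 7.97% of all windows past the floor. The median ratio was 0.12, with 9 above and 7 below the median window, and its sign turned with the floor, to -0.57 with any read and -0.30 at 20 CPM and 400 reads. The highest levels were those of MBD3, a subunit of the NuRD repressor complex, with 323 and 1630 reads, TFRC, the transferrin receptor, with 432 and 1179, and KLF1, the activator that binds the CACCC box, with 234 and 807. MYB, a transcription factor of progenitor cells, had 230 and 723 reads, and ZFPM1, the GATA1 partner also called FOG1, 64 and 800.

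Among the 16 listed windows past the floor, ZFPM1 had the highest ratio at 1.40 (1.04 to 1.80). ZBTB7A, a repressor of fetal globin, followed with 61 and 568 reads at 0.98 (0.60 to 1.39). TFRC was lowest of the 16 at -0.79 (-0.95 to -0.63), then MYB at -0.59 (-0.80 to -0.37). Listed windows below the floor were not ranked, and some of them had ratios beyond these in either direction. The windows of the fetal globin activators LIN28B and IGF2BP1 had 0 reads in both libraries, as did that of HBS1L, next to MYB. IGF2BP1 kept only 108 unshared bases, and the HBS1L window does not hold its RefSeq start. BCL11A, the main repressor of fetal globin, had 0 reads untreated and 5 with DMSO over 6000 unshared bases. AHSP, the chaperone of free alpha chains, had 5 and 34 reads.

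HBQ1 had the highest CPM per window of the globin windows as a mean of both libraries, at 68.3 untreated and 206 with DMSO. This order takes no account of unshared bases, and untreated HBG1 was higher at 114 CPM. Per kb, HBA1 stood at 27.8 and 56.9 CPM, against 18.9 and 56.9 for HBQ1. Distance to the HBQ1 window was taken between the pairs of log2 CPM over the 2 libraries. The 3 nearest windows past the floor were KEAP1 with 145 and 855 reads (distance 0.0101), U2AF2 with 145 and 846 (0.0168) and NSD2 with 142 and 828 (0.0600). All 3 windows have 6000 unshared bases against 3615 for HBQ1, so their levels per kb were lower.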

How the data were processed

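The authors deposited 1 table of raw read counts per 6000-base window with TPM values per library, per the file headers. The submitters' processing notes name hg38, Bowtie2 2.3.5 for alignment and featureCounts 2.0.1 for counting. The deposited TPM equal CPM in all 36814 windows of both libraries (within 1e-06), since all have 1 length, and were not used further. Per the labels' protocols the run-on reaction took 5 min at 30 °C, and the kit keeps strand, but windows of either strand share bases. The sources used here do not give the read length, and a read that reaches into shared bases is lost too, so levels per kb are approximate.

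Unshared bases were computed from all windows, and no rate was computed under 200 of them. TMM factors came from edgeR 4.0.16 (R 4.3.3), which alone put an equal level at 3.81 DMSO reads per untreated read. The median window, from which ratios are counted, lay at 4.72. The prior count was 0.5. With 1 library per treatment, edgeR was used for scaling only, and no test was run. Intervals are exact (scipy 1.17.1), at 95%. The ratio procedure was tested on simulated data.

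Named were all 10 globin windows, windows sharing their bases, windows within 100 kb with 20 or more reads, from the list the 5 highest levels, the 2 highest and 2 lowest ratios and those at 0, and 3 windows near the highest member. The genes and lists were chosen with earlier results of these data known. AC104389.6 and the positional order of the olfactory receptor windows were singled out after the values were seen. Start sites and promoters come from RefSeq GRCh38.p14. Exons and introns were not used here. Some genes are not reported here and were left out of the counts and sums over lists.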

Additional observations from a re-analysis of the deposited data

How the results depend on the processing

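No paired analysis was possible because there is a single library of each kind, and no replicate could be left out. Ratios are counted from the median window, so the 4 other scalings (upper quartile, size factors of DESeq2 1.42.0, library totals, totals without ribosomal RNA and mitochondrial windows) cancel in them by construction. The prior count of 2 and thinning of the DMSO library moved no globin ratio past the floor beyond its counting interval. The floor did, since it sets the median window and the windows counted. With any read the median globin ratio was -0.53 and that of the 33-gene list -0.57. Of 9 globin windows with a read, 1 was then at least 2-fold higher, against 27.7% of all windows with a read. It was the window named HBG2, with 0 and 2 reads. At 1 CPM and 20 reads the 2 medians were -0.080 and 0.11, and at 20 CPM and 400 reads -0.54 and -0.30. At 1 CPM and 20 reads 1 of 8 globin windows was at least 2-fold higher, against 12.7% of all windows past that floor. It was HBB, with 2 and 25 reads, whose interval counted from the main median window was -0.60 to 4.53. HBQ1 ran from -0.083 with any read to 0.42. Among windows without overlap 0 globin windows were 2-fold lower, against 8.04% of all such windows past the floor, since HBG1 is not among them. At a 1.5-fold threshold 2 of 5 globin windows were lower, against 19.6% of all windows past the floor. They were HBG1 and HBA2, and HBA2 at -0.59 (-0.91 to -0.25) was only just past the threshold. A count of 2 among 5 windows is too small to be read against that share. The HBQ1 share of alpha reads with DMSO was 39.3% per kb and 47.8% per window. The count of 7 globin windows at 1 CPM was also 7 per kb and with the DMSO library thinned. With CPM of reads outside ribosomal RNA and mitochondrial windows it was 7 per kb and 8 per window, HBB being added (the per-window value was chosen after seeing the data). Depth limits the ratios of the windows named HBB, HBD and HBZ, with 2 to 10 untreated reads, and those named HBE1 and HBG2 had 0.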
